A study of Mus musculus with 2 samples.

Results

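Transcript levels of 9 transcription factors that specify or mark myeloid and dendritic lineages were followed across the phagocytes and dendritic cells of mouse MC38 tumours. The 9 genes, of 32285 genes counted, are Maf, Spi1, Cebpb, Irf8, Irf4, Batf3, Tcf4, Zbtb46 and Klf4, and all of them were found by name in both libraries. MC38 is a mouse colon carcinoma line. Immune cells were sorted by flow cytometry from the tumours at day 21 and profiled by droplet-based 3′ single-cell RNA-seq, which counts unique molecular identifiers (UMIs). The labels give 1 group with 2 replicate libraries and name no genotype, treatment or age, and nothing in them says that the libraries came from separate animals. The names of the deposited files hold a word that differs between the libraries and that no label explains, so the libraries may differ in more than replication, and every p-value and the library block take the labels at their word. P-values measure only how gate differences varied between these libraries once the shared library difference was taken out, and that spread may be technical.

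Cell classes were set by a few genes that are not among the 9 factors. Each class below is a gate on raw UMIs: Xcr1 for type 1 dendritic cells, Napsa and Mgl2 for type 2 dendritic cells, Ccr7 for mature dendritic cells, Siglech for plasmacytoid dendritic cells, Ly6c2, Chil3 and F13a1 for monocytes, S100a8 and S100a9 for neutrophils, and the C1q genes for macrophages. The gates held 39 and 5 type 1 dendritic barcodes in replicates 1 and 2, 76 and 32 type 2 dendritic barcodes, 8 and 15 mature dendritic barcodes, 9 and 5 plasmacytoid barcodes, 28 and 39 monocytes, 6 and 22 neutrophils, and 851 and 550 C1q macrophages. They took in 1017 of 2749 deposited barcodes in replicate 1 and 668 of 2937 in replicate 2, and no barcode sequence was shared between the libraries. Gene positions below are those of GENCODE M21 on GRCm38, the assembly that mm10 names. The libraries held 5688000 and 5862342 UMIs. Barcodes with no Ptprc RNA and hardly any leukocyte RNA, 675 and 1010 of them, are given for comparison. Since they were chosen for low leukocyte RNA, low levels of leukocyte genes in them are in part by construction, and they do not measure free RNA. Lymphoid barcodes held Maf at 350 and 318 CPM (UMIs of a gene per 1000000 UMIs of the gate). Irf8 was at 244 and 178 CPM in them, against 159 and 164 CPM in macrophages. They also held the macrophage gene C1qa at 2862 and 1841 CPM, against 4641 and 3699 CPM in macrophages. Whether the Maf and Irf8 RNA of lymphoid barcodes is their own was not tested, so they are no clean reference.

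The libraries stood apart in ways that touch these classes. Lyz2, the lysozyme gene of myeloid cells, was at 7282 CPM (10116 UMIs) in the C1q macrophages of replicate 1 and at 15.5 CPM (11 UMIs) in those of replicate 2. Macrophages with Il1b, Ly6i or Clec4n RNA numbered 14 in replicate 1 and 225 in replicate 2, whereas those with Trem2, Fcrls or Stab1 RNA numbered 354 and 26. Barcodes of the type 1 gate had a median of 2264 and 1133 UMIs and those of the type 2 gate 2324.5 and 1572.5, against 1197 and 1065.5 in macrophages. Levels are therefore given per library, as CPM of the summed gate with exact 95% Poisson intervals, which cover counting error only.

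The gates were checked on marker genes that took no part in the gating. Barcodes with 0.5% C1q or more could enter only the macrophage gate of the 7. Lower levels of macrophage markers that go with C1q are therefore in part by construction in the other 6. In type 1 dendritic cells 4 of 7 type 1 markers rose and 9 of 10 macrophage markers fell against C1q macrophages, with Clec9a, a receptor for dead cells, at 108 and 521 CPM against 0.720 and 11.2 CPM. Fcgr1, an Fc receptor, was at 18.1 and 261 CPM in that gate against 235 and 267 CPM in macrophages. Adgre1, which encodes F4/80, had 0 UMIs in both type 1 gates and 246 and 211 UMIs in macrophages. In type 2 dendritic cells 4 of 6 type 2 markers rose and 8 of 10 macrophage markers fell, with the lectin gene Cd209a at 167 and 95.2 CPM against 5.76 and 21.1 CPM and H2-DMb2, an antigen-loading chaperone subunit, at 278 and 228 CPM against 21.6 and 39.3 CPM. Mature dendritic cells had 3 of 5 tested maturation markers higher, including the actin bundler Fscn1 at 292 and 1017 CPM against 5.76 and 4.21 CPM, and the chemokine gene Ccl22 at 292 and 321 CPM against 5.76 and 2.81 CPM. Monocytes had 2 of 5 monocyte markers higher, among them Plac8 at 2835 and 4073 CPM against 97.9 and 798 CPM. No neutrophil marker of 6 tested was called in neutrophils, whose list had a median log2 difference of 2.22 against -3.41 over all genes. The neutrophil gate held less neutrophil-list RNA (4486 and 1860 CPM) than macrophage-list RNA (9392 and 4406 CPM). Its name therefore rests on its gate genes in this fit. The macrophage list also exceeded the own list in type 2 (3715 and 3293 against 1093 and 895 CPM) and mature dendritic cells (5011 and 3853 against 1557 and 2301 CPM). In replicate 1 alone it did so in type 1 dendritic cells (2465 against 1490 CPM) and monocytes (8130 against 4006 CPM). Neither list was scaled for its number of genes. With 5 barcodes per sum, a setting chosen after the gate sizes were seen, Retnlg was called at 2944 and 196 CPM in neutrophils against 8.64 and 5.62 CPM in macrophages, as was G0s2 at 280 and 343 CPM against 2.16 and 8.43 CPM. In plasmacytoid dendritic cells 4 of 6 tested plasmacytoid markers rose in that setting, with the chemokine receptor gene Ccr9 at 1147 and 778 CPM against 2.16 and 2.81 CPM. The monocyte list was also high in the plasmacytoid gate (6471 and 3424 CPM, against 4006 and 5204 CPM in monocytes). So was the type 2 list in the mature gate (1654 and 749 CPM, against 1093 and 895 CPM in the type 2 gate). A 6-gene list of fibroblasts and tumour cells stood at 1119 and 214 CPM (23 and 4 UMIs) in the mature gate, against 851 and 2325 CPM in Ptprc-negative barcodes. Of its 4 tested genes, 1 was called higher there than in macrophages with 5 barcodes per sum.

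Lineage factors of myeloid cells act in combinations. PU.1, the product of Spi1, is needed for nearly all myeloid fates and can bind DNA together with IRF4 or IRF8. IRF8 and BATF3 are required for type 1 dendritic cells, IRF4 and KLF4 for type 2 dendritic cells or subsets of them, and E2-2, the product of Tcf4, for plasmacytoid dendritic cells. ZBTB46 marks the classical dendritic lineage, C/EBPβ supports monocyte and macrophage gene programmes, and c-MAF is found in many tissue macrophages.

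Classes were compared by summing raw counts per gate and library and fitting all genes with edgeR's quasi-likelihood test, with the library as a block and Benjamini-Hochberg adjusted p-values at a threshold of 0.05. Only sums of at least 10 barcodes entered. Type 1 dendritic cells entered from replicate 1 alone, mature dendritic cells and neutrophils from replicate 2 alone, and plasmacytoid dendritic cells not at all. The fit had 2 residual degrees of freedom over 9382 genes, which came from macrophages, monocytes and type 2 dendritic cells. A lone sum adds nothing to the estimate of spread and is assumed to vary like the others. All classes were set against the same 2 macrophage sums.

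Counted over the 9 factors, 3 were called between type 1 dendritic cells and macrophages (Irf8 higher, Maf and Cebpb lower), where 1.73% of all 9382 genes were called. Between type 2 dendritic cells and macrophages 2 were called (Klf4 higher, Maf lower), against 1.62% of all genes. Between type 1 and type 2 dendritic cells 1 was called (Irf8), against 0.341% of all genes. DESeq2's Wald test on the same sums called 0 factors in each of these comparisons, and thinning to 800 UMIs per barcode before edgeR left 1, 1 and 0, Maf in both dendritic gates. No factor was called by edgeR in monocytes, neutrophils or mature dendritic cells against macrophages or in mature against type 2 dendritic cells, where 0.949%, 0.171%, 0.171% and 0.064% of all genes were called. At an unadjusted p under 0.05 these comparisons had 3, 1, 1 and 0 factors, and DESeq2 called 0 in each. In monocytes the direction of calls turned with the scaling: 15 genes were higher and 74 lower with TMM, against 55 higher and 31 lower with total UMIs, and the median over all genes was -0.62 with TMM and -0.21 with total UMIs.

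**Figure D1:**
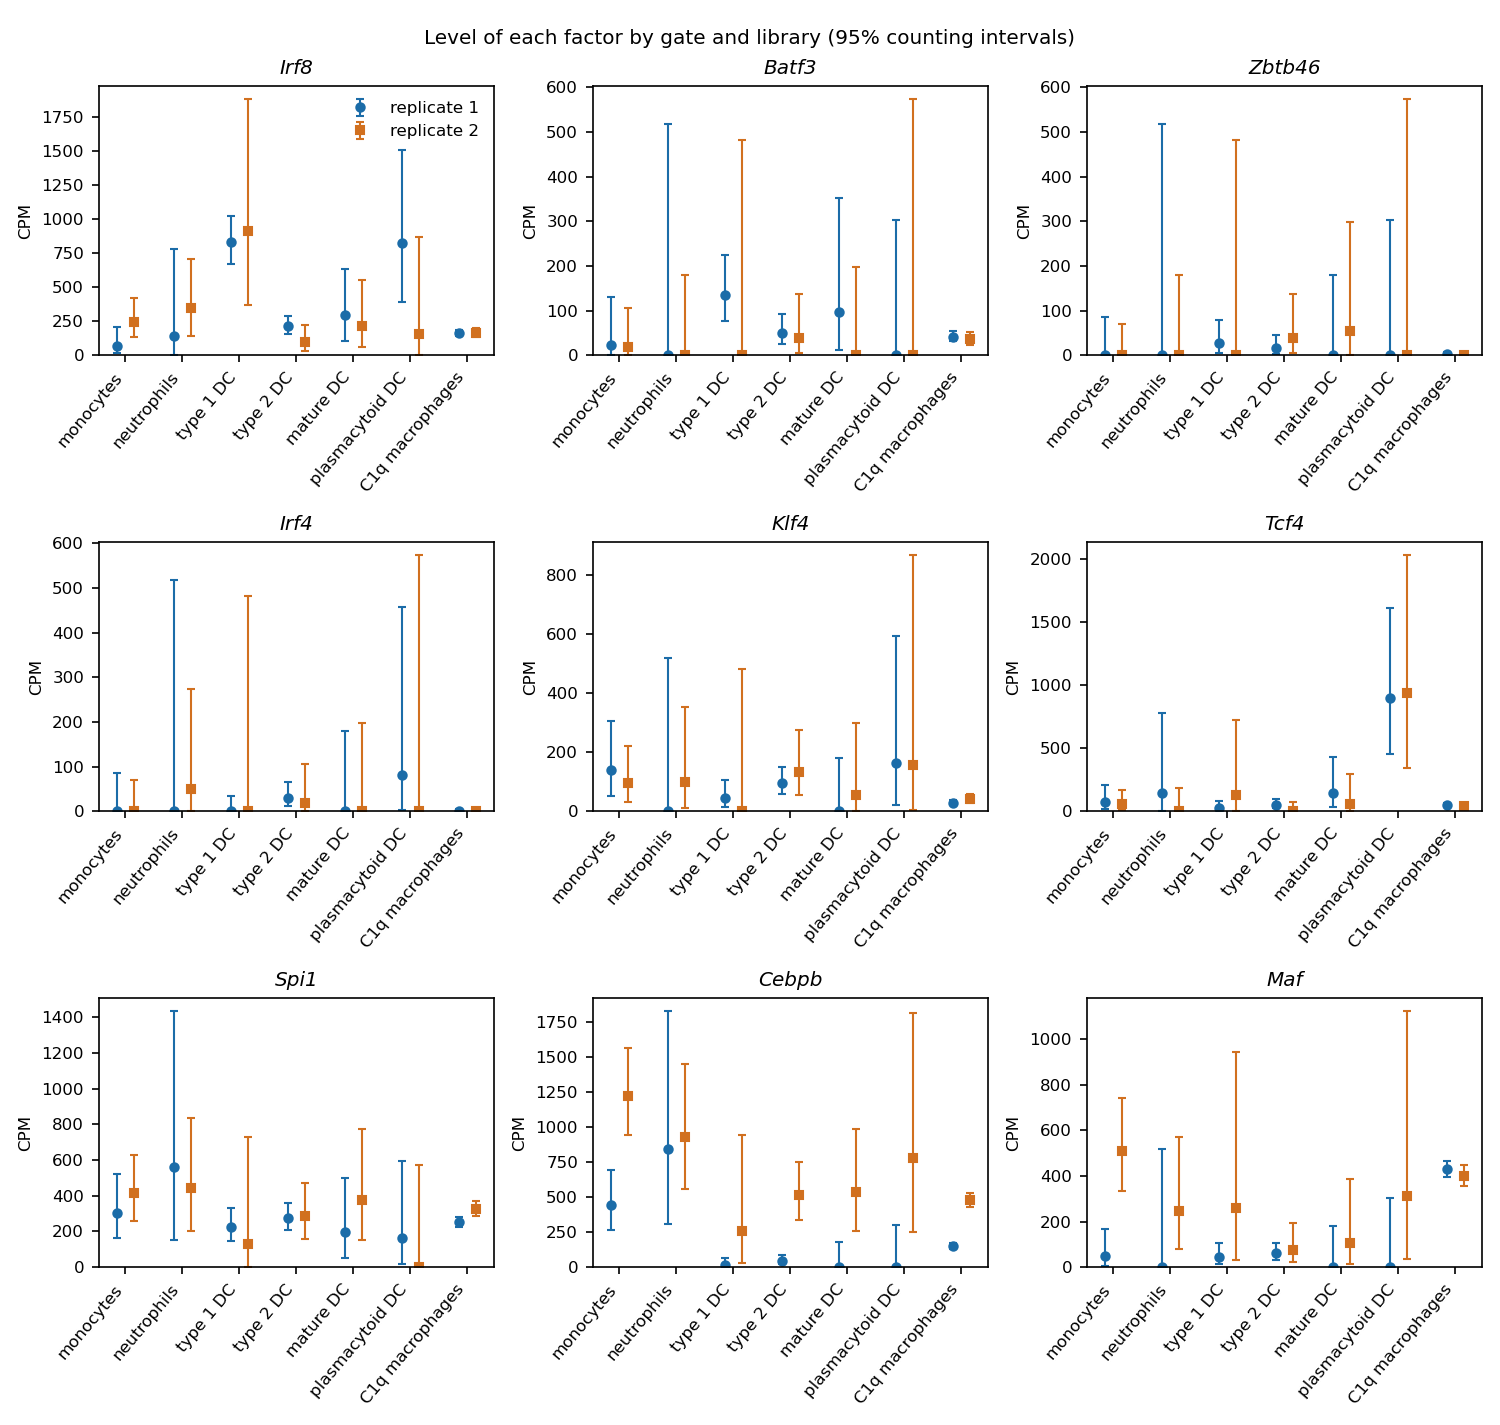
Levels of the 9 factors in CPM (vertical axes, one panel per gene) in each gate (horizontal axes, C1q macrophages at the right), with 1 point per library and exact 95% Poisson intervals as bars. Irf8 stood highest in type 1 dendritic cells in both libraries (831 and 913 CPM), close to plasmacytoid dendritic cells in replicate 1 (819 CPM). Tcf4 stood highest in plasmacytoid dendritic cells (901 and 934 CPM).

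Irf8 (chromosome 8, 120736358 to 120756694, plus strand) was higher in type 1 dendritic cells than in macrophages and type 2 dendritic cells. It was at 831 CPM (interval 670 to 1019, 92 UMIs) in the type 1 gate of replicate 1 and at 913 CPM (367 to 1880, 7 UMIs) in that of replicate 2, against 159 and 164 CPM in C1q macrophages. Type 2 dendritic cells stood at 213 and 95.2 CPM, and Ptprc-negative barcodes at 5.08 and 9.87 CPM. The type 1 values lay above those of type 2 dendritic cells, monocytes, neutrophils, mature dendritic cells and macrophages in both libraries, and the intervals of type 1 dendritic cells and macrophages did not overlap. In the fit Irf8 was higher in type 1 dendritic cells than in macrophages by 2.32 on the log2 scale (SE 0.36, edgeR adjusted p = 6.28e-08) and higher than in type 2 dendritic cells by 2.21 (SE 0.38, adjusted p = 1.08e-05). Including replicate 2, whose 5 barcodes fell under the minimum, gave 1.99 (adjusted p = 0.00887) against macrophages and 1.98 (adjusted p = 0.109) against type 2 dendritic cells, so the second call was lost. In that fit 2 factors were called against macrophages and 0 against type 2 dendritic cells, where 0.994% and 0.0952% of 9452 genes were called. The 5 barcodes of replicate 2 alone gave 1.36 against macrophages with TMM scaling. The unscaled levels there, 913 against 164 CPM, lay about as far apart as those of replicate 1. With both libraries fitted, the TMM factor of this sum of 7671 UMIs was 1.73, against 0.727 for macrophages of replicate 2. The difference from macrophages missed the threshold with DESeq2 (2.58, adjusted p = 0.0681) and with edgeR after thinning (1.59, adjusted p = 0.159).

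Irf8 RNA was found in 33 of 39 type 1 barcodes of replicate 1 (84.6%, exact binomial 95% interval 69.5 to 94.1) and in 2 of 5 of replicate 2, against 20.4% and 17.6% of macrophages. In lymphoid barcodes the share was 33.9% and 25.6%, and in Ptprc-negative barcodes 1.19% and 2.97%, at a median of 1979 and 2227.5 UMIs. After each barcode was thinned to 800 UMIs, the shares were 42.1% (16 of 38) and 1 of 5 in type 1 barcodes, 71.4% (5 of 7) and 1 of 4 in plasmacytoid barcodes, 19.3% and 13.02% in lymphoid barcodes, 11.2% and 11.8% in macrophages, and 0.490% and 1.16% in Ptprc-negative barcodes. Unthinned, 6 of 9 and 1 of 5 plasmacytoid barcodes held Irf8, so in replicate 1 the order of the type 1 and plasmacytoid gates turned with thinning.

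Irf8 also appeared outside the type 1 gate. Plasmacytoid dendritic cells held it at 819 CPM (10 UMIs) in replicate 1 and at 156 CPM (1 UMI) in replicate 2, values that lie on both sides of the macrophage level. Mature dendritic cells were at 292 and 214 CPM, neutrophils at 140 and 343 CPM, and monocytes at 70.3 and 245 CPM. Ordered by their mean over the libraries, the type 1 and plasmacytoid gates were the 1 pair of 6 neighbouring pairs whose library ranges did not overlap. The gap was narrow, at 831 against 819 CPM in replicate 1. The plasmacytoid value there lies inside the counting interval given above for the type 1 gate. How often such pairs occur over all genes was not counted.

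The stretch of 250 bases before the first of 2 Irf8 starts in RefSeq is shown because it holds a pair of matches to the GAS motif, a sequence element of interferon-γ responses. It lies at chr8:120736108-120736357 (GRCm38.p6, plus strand, RefSeq), and capitals mark the matches. The Klf4 promoter, chr4:55532476-55532725 on the minus strand, is set beside it as that of the other factor called higher in a classical dendritic gate.
Irf8: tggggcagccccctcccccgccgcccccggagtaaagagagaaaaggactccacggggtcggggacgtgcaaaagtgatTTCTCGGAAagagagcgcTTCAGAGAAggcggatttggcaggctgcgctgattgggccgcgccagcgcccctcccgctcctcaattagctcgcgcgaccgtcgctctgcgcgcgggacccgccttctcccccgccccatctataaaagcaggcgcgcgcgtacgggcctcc
Klf4: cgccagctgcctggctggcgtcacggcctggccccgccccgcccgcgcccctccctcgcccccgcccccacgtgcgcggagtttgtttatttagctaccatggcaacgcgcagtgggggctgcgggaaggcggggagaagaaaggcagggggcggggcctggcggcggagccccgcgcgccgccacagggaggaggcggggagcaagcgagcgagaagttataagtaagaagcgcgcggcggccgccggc
The Irf8 matches, TTCTCGGAA and TTCAGAGAA, begin 171 and 153 bases before the first start, whereas the Klf4 stretch and that before the second Irf8 start hold no match to any of the 6 motifs searched. RefSeq entries were matched by symbol for 6 of the 9 genes. The motifs, searched on both strands, were GAS (TTCNNNGAA), present in 7.02% of all 32851 promoters of this length, ISRE (GAAA, any 2 bases, GAAA) in 2.98%, EICE (GGAA, any 2 bases, GAAA) in 2.30%, PU.1 (GAGGAAGT) in 2.44%, AP-1 (TGANTCA) in 6.75% and C/EBP (TTGCGNAA) in 0.670%, and the ISRE and EICE motifs share letters. Batf3 had 1 GAS match and Zbtb46 had 1 AP-1 match. A match describes letters and does not show binding.

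Batf3 (chromosome 1, 191097847 to 191108945, plus strand) encodes the partner of IRF8 in type 1 dendritic cells. It was at 135 CPM (interval 75.8 to 223, 15 UMIs) in type 1 dendritic cells of replicate 1, against 41.8 CPM (31.7 to 54.0, 58 UMIs) in macrophages of the same library. In replicate 2 it had 0 UMIs in 7671 UMIs of the type 1 gate, where 3 counts would have been 391 CPM, against 35.1 CPM in macrophages, so no difference was detectable at this depth. The intervals of replicate 1 did not overlap, but the fitted difference of 1.64 (SE 0.59) did not pass over all genes (edgeR adjusted p = 0.186). Of the 39 type 1 barcodes in replicate 1, 10 held Batf3 and all 10 also held Irf8. Among 851 macrophages of replicate 1, 55 held Batf3, 174 held Irf8 and 22 held both. Type 2 dendritic cells were at 50.6 and 38.1 CPM, close to macrophages.

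Zbtb46 (chromosome 2, 181387762 to 181459426, minus strand), the marker of classical dendritic cells, was counted only a few times. It had 3 and 0 UMIs in type 1, 3 and 2 UMIs in type 2 and 0 and 1 UMIs in mature dendritic cells, against 4 and 0 UMIs among the much larger macrophage sums. In CPM these were 27.1 and 0 in type 1 dendritic cells, 15.2 and 38.1 in type 2 dendritic cells, and 2.88 and 0 in macrophages. No Zbtb46 UMI was found in monocytes, neutrophils or plasmacytoid dendritic cells. The differences of type 1 and type 2 dendritic cells from macrophages did not pass (edgeR adjusted p = 0.837 and 0.658).

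Irf4 (chromosome 13, 30749226 to 30766976, plus strand), needed for type 2 dendritic cells, was as sparse. It was at 30.4 CPM (interval 11.1 to 66.1, 6 UMIs) and 19.0 CPM (0.482 to 106, 1 UMI) in type 2 dendritic cells, against 1.44 CPM (0.174 to 5.20, 2 UMIs) and 1.40 CPM (0.0356 to 7.83, 1 UMI) in macrophages. Both type 2 values stood above both macrophage values, with intervals that did not overlap in replicate 1 but did in replicate 2. The difference did not pass (edgeR adjusted p = 0.251). No Irf4 UMI was found in type 1 or mature dendritic cells or in monocytes.

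Klf4 (chromosome 4, 55527143 to 55532466, minus strand), a zinc-finger factor of monocytes and of type 2 dendritic subsets, rose in type 2 dendritic cells. It was at 96.2 CPM (interval 57.9 to 150, 19 UMIs) and 133 CPM (53.6 to 274, 7 UMIs) there, against 28.1 CPM (19.96 to 38.4, 39 UMIs) and 40.7 CPM (27.3 to 58.5, 29 UMIs) in macrophages. Both type 2 values stood above both macrophage values, with intervals that were apart in replicate 1 but overlapped in replicate 2. The fitted difference was 1.66 (SE 0.45, edgeR adjusted p = 0.018). It missed the threshold without the library block (1.65, adjusted p = 0.155) with sums of 5 barcodes (1.66, adjusted p = 0.0955) and after thinning (adjusted p = 0.232), and DESeq2 gave it no adjusted p. With 5 barcodes per sum Maf was the 1 factor called in type 2 dendritic cells, where 0.698% of genes were called.

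Klf4 was also present outside the leukocytes. Ptprc-negative barcodes held it at 32.8 and 116 CPM, so that in replicate 2 the type 2 gate stood near them. Genes of fibroblasts and tumour cells were also higher by sum in the type 2 gate. Their 6-gene sum was 121 and 343 CPM (24 and 18 UMIs) there, against 40.3 and 54.8 CPM in macrophages, and 1 of 4 tested genes of that list was higher. This was the collagen gene Col3a1, at 91.1 and 152 CPM against 35.3 and 12.6 CPM (difference 1.93, edgeR adjusted p = 0.00715), a gene looked up after the count was seen. Krt8, Krt18 and Mgp were at 0 in both type 2 gates. The same list stood at 851 and 2325 CPM in Ptprc-negative barcodes. Monocyte markers were higher by sum too, at 820 and 2151 CPM in type 2 dendritic cells, against 439 and 1335 CPM in macrophages. Of these 1 of 5, Plac8, was called higher (1.03, edgeR adjusted p = 0.032), with a median of 0.59 over the list and -0.23 over all genes. The part of RNA from either source in the Klf4 difference was not tested. After thinning, 8.57% and 13.8% of type 2 barcodes held Klf4, against 1.76% and 3.46% of macrophages, while 3.43% and 8.53% of Ptprc-negative barcodes did. Unthinned, the shares were 18.4% and 15.6% in type 2 barcodes, 4.35% and 4.91% in macrophages, and 7.85% and 22.9% in Ptprc-negative barcodes. Among the other gates, plasmacytoid dendritic cells had the highest mean, at 164 and 156 CPM on 2 and 1 UMIs, monocytes stood at 141 and 94.3 CPM (6 and 5 UMIs) and type 1 dendritic cells at 45.2 and 0 CPM.

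**Figure D2:**
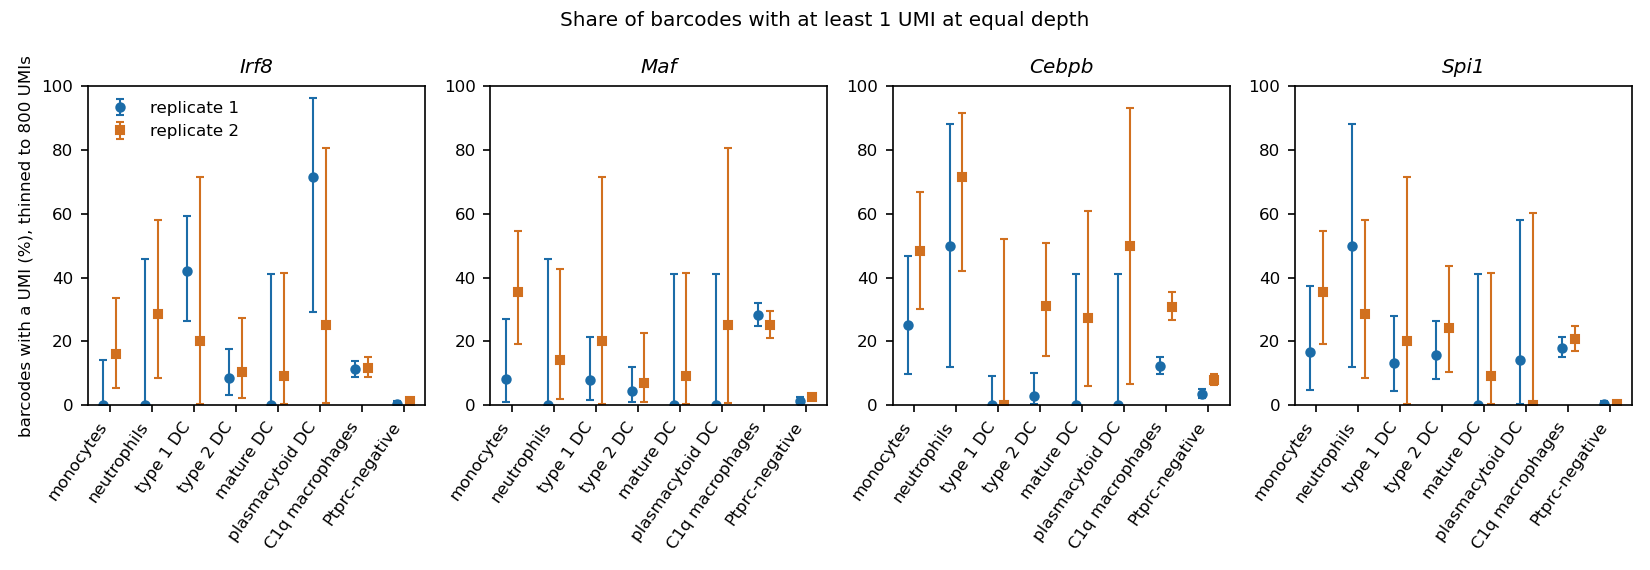
Share of barcodes with at least 1 UMI after thinning to 800 UMIs (vertical axis, percent) for Irf8, Maf, Cebpb and Spi1 in each gate and in Ptprc-negative barcodes, with 1 point per library and exact binomial 95% intervals. Irf8 was found in 42.1% (16 of 38) and 1 of 5 type 1 barcodes and in 71.4% (5 of 7) and 1 of 4 plasmacytoid barcodes, against 11.2% and 11.8% of macrophages.

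Tcf4, the factor of plasmacytoid dendritic cells, was high in that gate and low in the other gates. It was at 901 CPM (interval 450 to 1612, 11 UMIs) and 934 CPM (343 to 2033, 6 UMIs) in plasmacytoid dendritic cells, against 48.9 and 42.1 CPM in macrophages. Type 2 dendritic cells were at 50.6 and 0 CPM and mature dendritic cells at 146 and 53.5 CPM. The plasmacytoid values did not overlap those of any other gate, and 7 of 9 and 4 of 5 plasmacytoid barcodes held Tcf4, against 7.64% and 4.55% of macrophages. The unthinned share in Ptprc-negative barcodes was 10.4% and 25.8%, and their level was 36.5 and 134 CPM. Thinned, 71.4% (5 of 7) and 75.0% (3 of 4) of plasmacytoid barcodes held it, against 3.83% and 3.69% of macrophages and 3.76% and 10.1% of Ptprc-negative barcodes.

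Plasmacytoid dendritic cells could be tested only with a minimum of 5 barcodes per sum, chosen after the gate sizes were seen, which gave 14 sums and 6 residual degrees of freedom. In that fit 2 of the 9 factors were called against macrophages, where 0.815% of 9452 genes were called in either direction. Tcf4 was higher by 2.88 (SE 0.60, edgeR adjusted p = 0.000754). Maf, with 0 and 2 UMIs against 598 and 285 in macrophages, was lower by a fitted difference of -3.34 (SE 0.92, edgeR adjusted p = 0.0372). The median difference over all genes in this comparison was -3.53, so the fitted Maf fall was no larger than that of a typical gene. Against type 2 dendritic cells 1 factor was called, Tcf4 at 3.19 (SE 0.73, adjusted p = 0.00654), where 0.328% of genes were called. In replicate 1, where Maf had 0 UMIs in the plasmacytoid gate, 3 counts would have been 246 CPM. In replicate 2 alone the fitted Maf difference was -1.69 with TMM scaling, on 311 against 400 CPM. With both libraries fitted, the TMM factors were 1.48 and 1.98 for the plasmacytoid sums, against 0.572 and 0.727 for macrophages. Type 2 dendritic cells of replicate 2 held 0 Tcf4 UMIs, and replicate 1 alone gave a Tcf4 difference of 2.95 from them. Spi1 was at 164 and 0 CPM (2 and 0 UMIs) in plasmacytoid dendritic cells and did not pass (adjusted p = 0.209 against macrophages).

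Maf (chromosome 8, 115682942 to 115707794, minus strand), whose product c-MAF acts in macrophages, was lower in the dendritic gates. These gates leave out barcodes with 0.5% C1q or more, so part of this may be by construction, which was not tested. It was at 60.7 CPM (interval 31.4 to 106, 12 UMIs) and 76.1 CPM (20.7 to 195, 4 UMIs) in type 2 dendritic cells, against 430 CPM (397 to 466, 598 UMIs) and 400 CPM (355 to 450, 285 UMIs) in macrophages. Type 1 dendritic cells were at 45.2 CPM (14.7 to 105, 5 UMIs) and 261 CPM (31.6 to 942, 2 UMIs). In replicate 1 both dendritic gates lay clear of the macrophage interval, and in replicate 2 the type 2 gate did while the type 1 gate did not. The fitted differences were -3.03 (SE 0.58, edgeR adjusted p = 4.38e-05) for type 1 and -2.65 (SE 0.38, adjusted p = 1.61e-09) for type 2 dendritic cells. DESeq2 gave -2.64 (adjusted p = 0.271) and -2.55 (adjusted p = 0.0942), which did not pass. In mature dendritic cells, with 0 and 2 UMIs, the difference of -2.97 from replicate 2 did not pass (SE 0.80, adjusted p = 0.0797), whereas the fit with 5 barcodes per sum called it at -3.91 (adjusted p = 0.00423). It was the 1 factor called there, where 0.349% of genes were called. The median difference over all genes was -1.62 in that fit and -3.47 in the fit with replicate 2 only. For type 1 dendritic cells replicate 2 alone gave -1.72 with TMM scaling, on 261 against 400 CPM with overlapping intervals.

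Maf was also set against C1qa, a macrophage gene, within each gate. Given per 100 C1qa UMIs, there were 8.47 (interval 2.65 to 20.9) Maf UMIs in type 1 dendritic cells of replicate 1 and 9.38 (4.72 to 17.0) and 10.8 (2.80 to 30.1) in type 2 dendritic cells, against 9.28 (8.52 to 10.1) and 10.8 (9.55 to 12.2) in macrophages. These intervals overlap, and in type 1 dendritic cells of replicate 2, with 2 Maf and 4 C1qa UMIs, the interval ran from 4.52 to 349. Mature and plasmacytoid dendritic cells of replicate 2 had 2 Maf UMIs each, against 10 and 5 C1qa UMIs, and those of replicate 1 had none, so these gates are too sparse to be placed. Lymphoid barcodes had 12.2 and 17.3, and Ptprc-negative barcodes had 24.3 and 104. The gates cap the C1q share, so low C1qa in dendritic gates is by construction, and the ratio was not tested. Monocytes of replicate 2 stood apart with 93.1 (53.0 to 163) Maf UMIs per 100 C1qa UMIs, while those of replicate 1 had 10.5 (1.19 to 43.6).

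**Figure D3:**
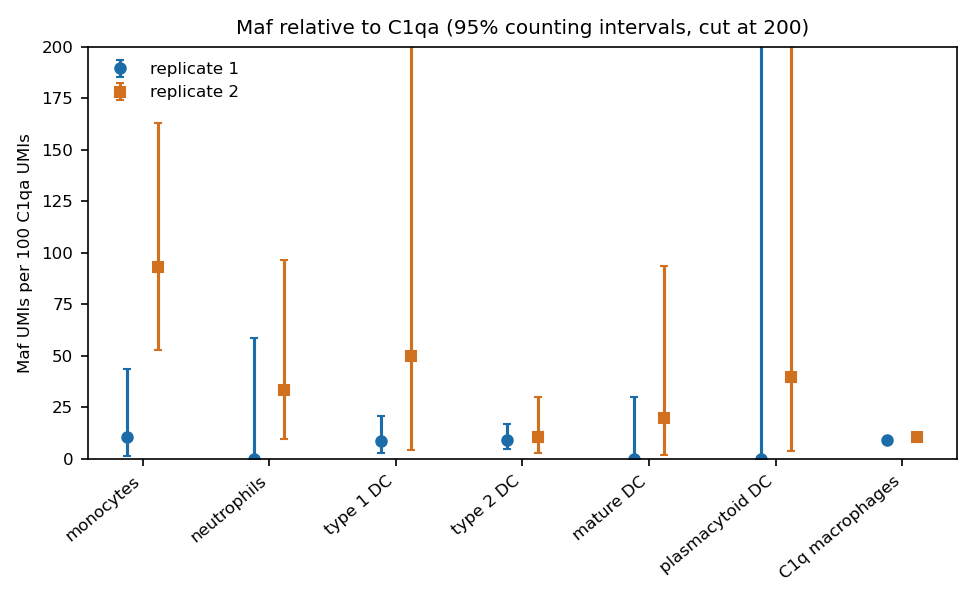
Maf UMIs per 100 C1qa UMIs (vertical axis, cut at 200) in each gate (horizontal axis), with 1 point per library and 95% intervals. Type 2 dendritic cells (9.38 and 10.8) and C1q macrophages (9.28 and 10.8) had like ratios, and monocytes of replicate 2 (93.1) stood above them.

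Monocytes differed between the libraries in Maf. They were at 46.9 CPM (2 UMIs) in replicate 1 and at 509 CPM (27 UMIs) in replicate 2, against 430 and 400 CPM in macrophages, so that they lay below the macrophages in the one library and above them in the other. The fitted difference of -0.997 (SE 0.348) did not pass (edgeR adjusted p = 0.189), and it was -3.54 from replicate 1 alone and 0.12 from replicate 2 alone.

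Cebpb (chromosome 2, 167688915 to 167690418, plus strand), whose product C/EBPβ is active in monocytes, macrophages and neutrophils, was highest in neutrophils and monocytes by mean. Monocytes were at 445 CPM (interval 268 to 695, 19 UMIs) and 1226 CPM (946 to 1562, 65 UMIs), against 153 CPM (133 to 175) and 478 CPM (428 to 531) in macrophages, with no overlap within either library. Neutrophils were at 841 and 930 CPM, type 2 dendritic cells at 45.5 and 514 CPM, and type 1 dendritic cells at 18.1 and 261 CPM (2 UMIs each). The monocyte difference was 0.96 (SE 0.30) and did not pass with TMM scaling (edgeR adjusted p = 0.105), but with scaling to total UMIs alone it was 1.37 (SE 0.28, adjusted p = 0.000267) and the 1 factor called, where 0.917% of genes were called. In type 1 dendritic cells of replicate 1 Cebpb fell by 2.95 (SE 0.79, adjusted p = 0.0151), which was lost when the 5 barcodes of replicate 2 entered (-2.62, adjusted p = 0.0757). It was lost as well with C1q boundaries of 0.25% and 1% (edgeR adjusted p = 0.0769) in place of 0.5%. Replicate 2 alone gave -1.97 with TMM scaling, on 261 against 478 CPM.

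Cebpb was higher in replicate 2 than in replicate 1 in 7 of 7 gates. The same held outside them, with 35.6 and 104 CPM in Ptprc-negative and 136 and 398 CPM in lymphoid barcodes. With 1 sum per gate and library this has no test, and its size differed between gates: replicate 2 over replicate 1 was 11.3 in type 2 dendritic cells, 2.75 in monocytes, 1.11 in neutrophils and 3.13 in macrophages. The library block takes out only what the gates share. Maf was higher in replicate 2 in 6 of 7 gates, and how often genes at large take such a direction was not counted. None of the 6 neighbouring pairs of gates, ordered by mean, kept their library ranges apart for Cebpb, and the same was true of Maf. How often this holds over all genes was not counted.

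Spi1 (chromosome 2, 91082390 to 91115756, plus strand), encoding PU.1, was present in all phagocyte and dendritic gates of replicate 1 and all but the plasmacytoid gate of replicate 2, and no comparison called it. It was at 273 and 285 CPM in type 2 dendritic cells, 226 and 130 CPM in type 1 dendritic cells, 195 and 375 CPM in mature dendritic cells, 305 and 415 CPM in monocytes and 561 and 441 CPM in neutrophils, against 251 and 326 CPM in macrophages. Ptprc-negative barcodes held it at 3.70 and 4.61 CPM. The library ranges of type 2 dendritic cells, mature dendritic cells and monocytes overlapped that of macrophages, neutrophils stood above it on 4 and 9 UMIs, and type 1 dendritic cells stood below it on 25 and 1 UMIs. Differences from macrophages were -0.24 (SE 0.42) for type 1 dendritic cells, -0.05 (SE 0.30) for type 2 dendritic cells and -0.10 (SE 0.34) for monocytes, and none passed. With scaling to total UMIs alone the monocyte value was 0.33.

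**Figure D4:**
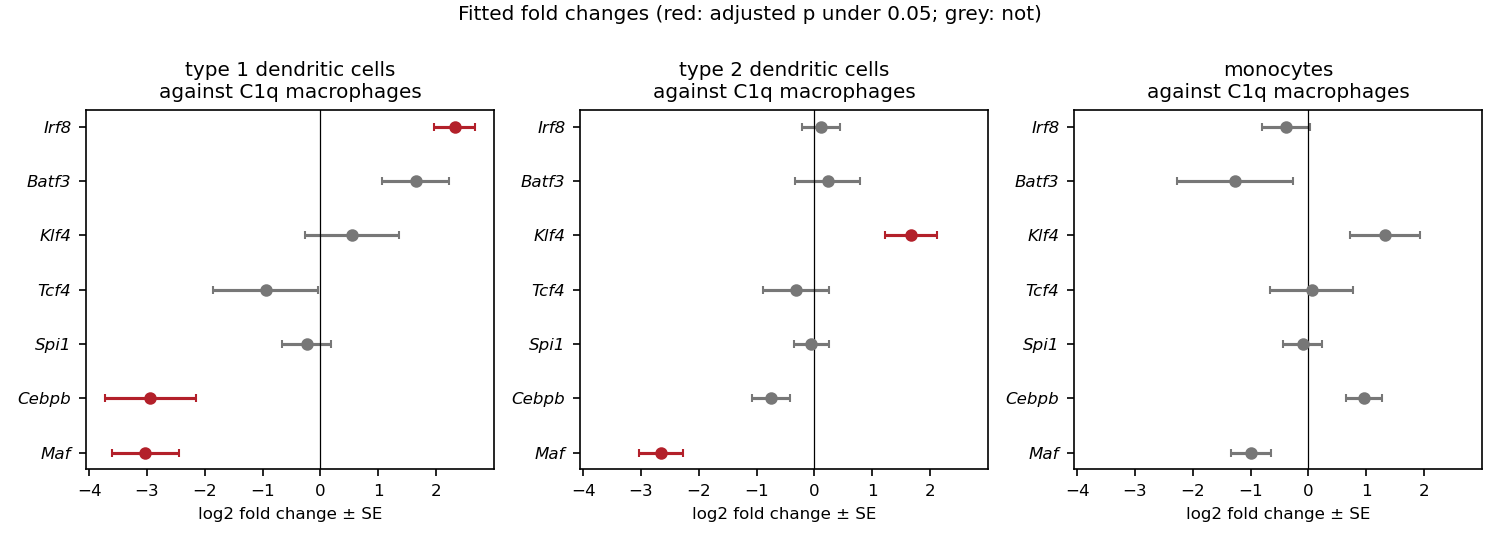
Log2 differences from C1q macrophages with their standard errors (horizontal axis) for 7 of the 9 factors in type 1 dendritic cells, type 2 dendritic cells and monocytes, red where the edgeR adjusted p is under 0.05. Irf4 and Zbtb46 are left out because so few UMIs give wide errors. The largest called rise is that of Irf8 (2.32) and the largest called fall that of Maf (-3.03), both in type 1 dendritic cells.

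The macrophage subsets were compared for the same factors. Maf was at 153 and 382 CPM (6 and 129 UMIs) in Il1b/Ly6i/Clec4n macrophages, against 470 and 732 CPM (371 and 28 UMIs) in Trem2/Fcrls/Stab1 macrophages. The values were lower in the first subset within each library, and the difference of -1.28 (SE 0.47) did not pass with TMM scaling (edgeR adjusted p = 1). With total UMIs alone it was -1.30 (adjusted p = 0.0481), the 1 factor called, where 0.25% of genes were called. Of the 9 factors 0 were called by edgeR with TMM and 0 by DESeq2, 1 had an unadjusted p under 0.05, and 0.0714% of 8402 genes were called. Cebpb was at 153 and 494 CPM in the first subset, against 136 and 340 CPM in the Trem2/Fcrls/Stab1 macrophages.

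Of 56 other lineage factors, listed with earlier results of these data known, 51 could be tested. In type 1 dendritic cells 1 rose and 2 fell against macrophages, with a median log2 difference of -0.14 over the list and -0.34 over all genes. Id2, an inhibitor of E proteins needed for dendritic development, was at 813 and 913 CPM in type 1 dendritic cells, against 202 and 235 CPM in macrophages (difference 1.91 from replicate 1 alone, edgeR adjusted p = 2.34e-05). Among those that fell, Zeb2, a repressor that favours monocytes and plasmacytoid cells, was at 45.2 and 0 CPM in type 1 dendritic cells, against 222 and 299 CPM in macrophages (-2.10, edgeR adjusted p = 0.0374).

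In type 2 dendritic cells 1 of 51 rose and 0 fell, with medians of 0.13 over the list and -0.23 over all genes. This was Egr1, an immediate early gene, at 86.0 and 495 CPM against 53.3 and 112 CPM in macrophages (1.34, edgeR adjusted p = 0.0113). In monocytes Nr4a1, a nuclear receptor of patrolling monocytes that is also an early response gene, was the 1 that rose, at 211 and 113 CPM against 8.64 and 47.8 CPM (2.17, adjusted p = 0.0307). With 5 barcodes per sum Bcl11a, a factor of plasmacytoid and B lineages, was at 573 and 467 CPM (7 and 3 UMIs) in plasmacytoid dendritic cells, against 5.04 and 2.81 CPM in macrophages (5.40, SE 0.93, adjusted p = 6.15e-06). The Id2, Zeb2, Egr1 and Nr4a1 calls were lost with 5 barcodes per sum (edgeR adjusted p = 0.071, 0.0562, 0.181 and 0.126). No gene of the list was called by edgeR with 10 barcodes per sum in neutrophils, mature dendritic cells, type 1 against type 2 dendritic cells, or between the macrophage subsets.

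The genes whose levels ran most like each factor were named over 9 sums and 4713 genes, by Pearson's r of log2(CPM + 20). For Maf these were Lgmn (0.92), Aif1 (0.88) and Ap1s1 (0.86), and for Irf8 they were Med28 (0.85), Emc8 (0.85) and Naaa (0.83). Cebpb ran most like Pirb (0.97), Srgn (0.97) and Dusp1 (0.96), Spi1 most like Mcl1 (0.97), Grina (0.96) and Hilpda (0.96), and Klf4 most like Ier5 (0.92), Stk38 (0.84) and Isg15 (0.83). The sums share libraries and differ widely in depth, and the best of 4713 genes over 9 points will be high, so these values only describe the sums. For Batf3, Tcf4, Zbtb46 and Irf4, which rest on few UMIs in most sums, the nearest genes were Cfdp1, Tomm5 and Immp1l, then Phf23 and Mrpl55, then Sec61b, Cdc37 and Sap30bp, and last Retreg1, Slc36a3os and Klrd1.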

How the data were processed

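The deposited matrices of 2 libraries hold unnormalised UMI counts, made by the authors with Cell Ranger 6.0.1 on mm10, with Seurat 4.0.1 also named, per the submitters' processing notes. The step that used Seurat and the annotation behind the counts are not given in the sources here. Barcodes with at least 300 detected genes and under 10% mitochondrial UMIs were kept (2388 and 2837). Scrublet in scanpy 1.11.5 called 10 and 36 doublets, which were left out. So few calls in replicate 1 mean that doublets of unlike cells can remain there. The kept 2378 and 2801 barcodes had a median of 1488.5 and 1381 UMIs.

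Barcodes with 2 or more lymphoid UMIs left all other gates. C1q macrophages held C1qa, C1qb and C1qc at 0.5% of UMIs or more, neutrophils S100a8 and S100a9 at 1%, monocytes 3 UMIs, type 1 and mature dendritic cells 1 UMI, and type 2 and plasmacytoid dendritic cells 2 UMIs of their gate genes. Barcodes that met more than 1 of the macrophage, neutrophil, monocyte and dendritic gates were left out (128 and 102), and 372 and 587 met none.

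Sums per gate and library were tested with edgeR 4.0.16 in R 4.3.3 (TMM, genes with at least 10 UMIs, quasi-likelihood, library block, Benjamini-Hochberg over all genes). The gates of 1 library are taken from the same cell suspension, so replicate numbers pair the sums. On simulated counts for type 2 dendritic cells against C1q macrophages over 9293 genes, 85% of genes changed 4-fold and 12% of those changed 2-fold were recovered. The simulation gave all genes the same spread and all gates the same starting profile. Changed genes were drawn from those with at least 200 UMIs over the sums. These shares therefore do not cover Klf4, Batf3, Tcf4, Zbtb46 and Irf4, which had 113, 112, 118, 13 and 11 UMIs. Alternatives were DESeq2 1.42.0, other scalings, filters, gates, depth and replicates left out. Fits with 5 barcodes per sum, total UMIs and TMMwsp were added after the data were seen.

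Named genes are the 9 factors in every gate, the 2 called genes of largest rise and 2 of largest fall per comparison among other lineage factors and marker lists, and the 3 genes most like each factor. The called genes had to move the same way in each library where both gates entered the fit, which for some comparisons was 1 library. A subset of these is printed, and a few named by the rule are not reported here. Cebpb overlaps Tmem189 and Maf overlaps Gm15655 on the opposite strand (GENCODE M21), while Irf8, Tcf4 and Zbtb46 each overlap 1 gene on the same strand. Whether counting used strand is not given in the sources here, so reads of overlapping genes may be mixed. The factors, gates and lists were chosen with earlier results of these data known.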

Additional observations from a re-analysis of the deposited data

Results flagged for a closer look

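Barcodes that fell in no gate, 500 in replicate 1 and 689 in replicate 2, took no part in any comparison but held RNA of all 9 factors above the limit that a count of 0 allows. Maf was at 202 and 254 CPM there, Spi1 at 219 and 253 CPM, Cebpb at 174 and 597 CPM and Irf8 at 258 and 164 CPM. Klf4 was at 52.5 and 69.3 CPM, Tcf4 at 54.6 and 60.1 CPM, and Batf3 at 43.1 and 16.2 CPM. Irf4, at 9.46 and 5.77 CPM, and Zbtb46, at 7.35 and 8.08 CPM, were again the sparsest. Of these barcodes 128 and 102 met the rules of more than 1 class, so they may hold RNA of several cells, which was not tested.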

How the results depend on the processing

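No call reversed under any alternative. DESeq2's Wald test called 0 factors in type 1 dendritic cells against macrophages (3 with edgeR), 0 in type 2 against macrophages (2) and 0 in type 1 against type 2 (1). Its Irf8 difference in type 1 dendritic cells was 2.58 (adjusted p = 0.0681) and its Maf difference in type 2 dendritic cells -2.55 (adjusted p = 0.0942). Thinning to 800 UMIs left 1, 1 and 0 calls in these comparisons. In type 2 dendritic cells 1 call was left with filterByExpr (4 factors tested), at 500 genes per barcode, with 5 barcodes per sum, and with no replicate block, where pairing by library was given up and Klf4 was lost. With 5 barcodes per sum type 1 against type 2 had 0 calls. In monocytes 1 factor, Cebpb, was called with DESeq2 size factors, filterByExpr and total UMIs. In mature dendritic cells 1, Maf, was called with looser gates, a C1q boundary of 1% and 5 barcodes per sum. In plasmacytoid dendritic cells the C1q boundary of 1% left 1 of 2 calls. Between macrophage subsets 1, Maf, was called with DESeq2 size factors and total UMIs. C1q boundaries of 0.25% and 1% each left 2 of 3 calls in type 1 dendritic cells, without Cebpb. Over all comparisons and settings, 103 counts of called factors were within 1.5 times the count reported, 12 were lower and 8 higher. Of single values, 169 kept their call or moved within their error, 17 lost their call and 30 moved further. For levels that error was the spread between the libraries, which is wider where the libraries disagree. Levels with a replicate left out stay within it by construction, so the 169 holds values that were no check.

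Leaving out a replicate gave values with no test. In type 2 dendritic cells Maf ranged from -2.66 to -2.56 and Klf4 from 1.52 to 1.92. Without replicate 2 type 1 dendritic cells had Irf8 at 2.42, Maf at -3.21 and Cebpb at -3.02. With 5 barcodes per sum Irf8 ranged from 1.36 to 2.34 against macrophages and from 1.75 to 2.33 against type 2 dendritic cells. Maf ranged from -3.28 to -1.72 against macrophages. The values 1.36 and -1.72 are those of replicate 2 and hold the TMM scaling of its small type 1 sum. Tcf4 in plasmacytoid dendritic cells ranged from 3.11 to 3.17. Stricter gates left no residual degrees of freedom. Depth limits Irf4, Zbtb46 and Batf3, and every gate of under 10 barcodes.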
